A study of Homo sapiens with 6 samples.

Results

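The genes described here are 39 genes of ribosome production, taken from a named list of nucleolar and RNA polymerase I genes and matched by symbol to the 67051 gene identifiers of the deposited count tables. All 39 were found, and 32 held enough counts to be tested among the 23133 genes that passed the filter on low counts. They fall into 6 roles: transcription of the ribosomal RNA genes, box C/D particles, box H/ACA particles, nucleolar chaperones, maturation of the small subunit and maturation of the large subunit. They were measured by PRO-seq, in which polymerases already on DNA extend their RNA in isolated nuclei and that new RNA is sequenced, in SH-SY5Y, a human neuroblastoma cell line. There were 3 groups of 2 libraries each: untreated cells, cells exposed to 0.1 mM MPP+ over 0.5 h, and cells exposed to 0.1 mM MPP+ over 24 h. MPP+ is the toxic metabolite of MPTP and an inhibitor of mitochondrial complex I, and the series title places the study in work on mitochondrial transcription. All groups came from the same line, and whether the libraries of a group are separate cultures is not in the labels. The p-values below thus reflect the spread among the libraries as deposited, and that spread may be technical.

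Ribosomes are built in the nucleolus, where RNA polymerase I transcribes the ribosomal RNA precursor, small nucleolar RNA-protein particles guide its chemical modification, and assembly factors cleave and fold it together with ribosomal proteins. All the genes described here encode proteins and are themselves transcribed by RNA polymerase II, so a PRO-seq count over one of them measures polymerase II on that gene and not RNA polymerase I on ribosomal DNA. In neuroblastoma, MYCN and MYC are known for driving ribosome production genes.

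Libraries held between 5983066 and 11707612 assigned counts, and a gene at 0 counts could still hold up to 3 counts, or 0.256 to 0.501 CPM (counts scaled to a common library size) in these libraries. Of 11 markers of adrenergic neuroblasts, 10 were tested, among them GATA3, while TH, the rate-limiting enzyme of dopamine synthesis, had 2 to 10 counts per library. Markers of other cell types were also read: 6 of 7 mesenchymal, 5 of 6 epithelial and endothelial and 1 of 5 leukocyte markers were tested, EPCAM at a mean of 139 CPM in untreated cells, and KRT5 and CD68 were at 0, CD68 with its whole span overlapped by other genes. None of these markers passed in any comparison in edgeR, and their part in the results below was not tested. None of the 20 symbols listed for ribosomal DNA units and none of the 30 snoRNAs hosted by the listed genes passed the filter, so neither product is measured here.

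The first property of the list is which of its genes the tables could measure. RRN3, the factor that recruits RNA polymerase I to its promoter, had 0 counts in every library, as did PNO1 of small subunit maturation and NOP16, NIP7, PPAN and RRS1 of large subunit maturation. NOP2, an RNA methyltransferase of the large subunit, had 6 counts in all 6 libraries together. In the GENCODE 29 annotation of the hg38 genome, the spans of RRN3, PNO1, NOP16, NIP7 and PPAN were covered by other genes, as was all but 0.194% of NOP2. RRN3, at chr16:15060022-15094317, is overlapped by PDXDC1 on the opposite strand. RRS1 was the exception, with 67.8% of its span free of other genes.

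The same held across the table. Of 1715 protein-coding genes of 1 kb or more whose span was wholly overlapped, 1679 (97.9%) had 0 counts, against 318 of 6815 (4.67%) with no overlap. Where the overlapping genes lay only on the other strand, 828 of 832 (99.5%) had 0 counts. Counts therefore behaved as if reads in an overlap were given to no gene, without regard to strand, and a 0 for these genes is no measure of their transcription. Of the 32 tested genes, 27 had at least 50% of their span free of other genes. The counts of NOP14 (6.47% of its span free), POLR1C (11.3%), TAF1D (18.8%), UBTF (29.1%) and WDR12 (46.4%) came from the smaller part of the gene.

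**Figure D1:**
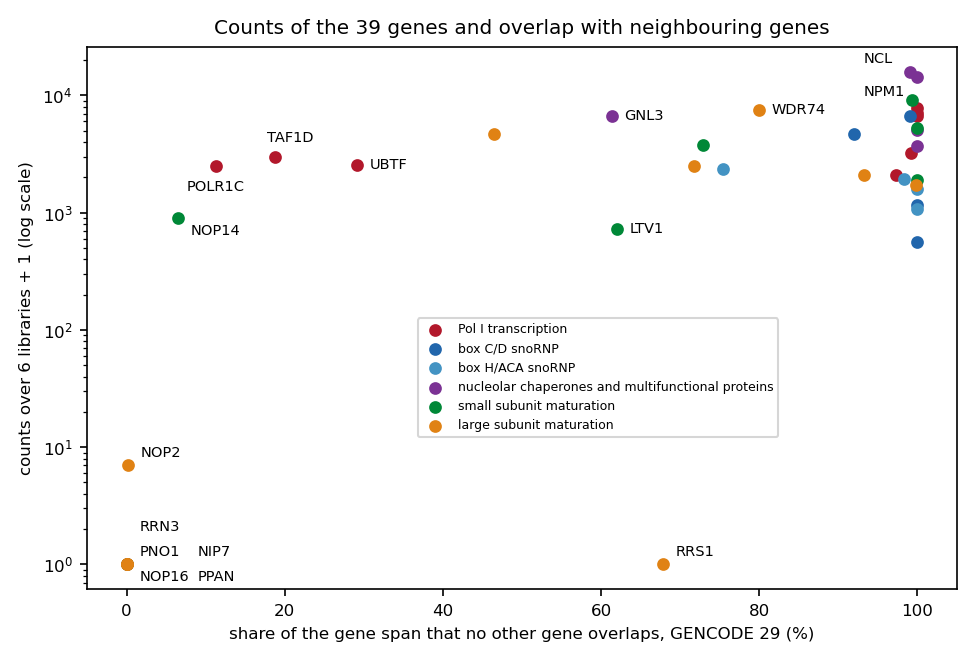
Counts of each of the 39 genes summed over 6 libraries, plus 1, on a log axis, against the percentage of the gene span that no other gene overlaps in GENCODE 29; each point is a gene and colour gives its role. RRN3, PNO1, NOP16, NIP7 and PPAN lie at 0% and 0 counts, NOP2 at 0.194% and 6 counts, and RRS1 at 67.8% and 0 counts.

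Levels per length were compared as TMM-scaled CPM per kb of unshared span, which is approximate because the authors' annotation release is not given. The counts do not show where along a gene the polymerases lay, so this order need not be an order of transcription. The highest mean over the 3 groups was 19.7 CPM per kb for WDR74, a large subunit assembly factor, followed by 16.2 for NOP56, a core protein of box C/D particles. The lowest were 1.15 CPM per kb for LTV1, which helps export and mature the small subunit, and 1.33 for RRP9, a protein of the U3 particle. RRP9 had 1.36, 1.41 and 1.22 CPM per kb in untreated, 0.5 h and 24 h cells. WDR74 had 18.0, 20.4 and 20.7. Its span was 80.0% unshared, with AP001160.1, TEX54 and RNU2-2P overlapping the rest. Whether transcription of those genes adds to the WDR74 counts was not tested.

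The comparison of 24 h with untreated cells asks how engaged polymerase on these genes differed after a long exposure. The same untreated libraries serve the comparison at 0.5 h, and the labels give no time for them. Time in culture and MPP+ exposure thus cannot be told apart at 24 h. None of the 32 genes passed an adjusted p of 0.05 in the quasi-likelihood test of edgeR, where 0.0692% of all tested genes did. The smallest adjusted p was 0.252, for MYBBP1A. The log2 fold change was below 0 in 28 genes and above 0 in 4, while 49.6% of all tested genes were below 0. The median was -0.13, or 1.09-fold lower, against 0.0023 over all tested genes, and the range was -0.54 to 0.27. Of the 28 values below 0, several were smaller than their SE, so their signs carry little weight. Among them were those of LTV1, NAT10, NOP14, NCL, GNL3, NOP10 and FBL. At an unadjusted p under 0.05, 6 genes were lower (MYBBP1A, PES1, TCOF1, UBTF, BYSL and NOLC1) and 0 higher, against 4.09% and 4.01% of all tested genes. Without untreated replicate 1 the number below 0 was 19. DESeq2 called none of the 32 in any comparison, against 0.0865%, 0.134% and 0% of all tested genes. With no filter on low counts 1 passed at 24 h and 0 in the other comparisons, against 0.698%, 0.188% and 0.208%. With the replicate number as a block 3 passed at 24 h, against 2.96%, 3 at 24 h against 0.5 h, against 1.78%, and 0 at 0.5 h, against 0.246%. The 27 genes with mostly unshared spans gave a median of -0.13, with 24 below 0.

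Both 24 h libraries lay below both untreated libraries in 11 genes, and above them in 2, against 18.5% and 18.8% of all tested genes. The 11 were POLR1A, UBTF, TCOF1, MYBBP1A, DKC1, NOLC1, BYSL, RRP12, PES1, WDR12 and MRTO4, and the 2 were POLR1E and WDR74. In 10 of the 32 tested genes, both 24 h libraries were below the other 4, against 10.4% of all tested genes. These 10 were the 11 above without POLR1A. Of all tested genes, 4287 had both 24 h libraries below both untreated ones, and 2408 of those had them below the other 4. No gene of the list had both 24 h libraries above the other 4, against 10.4% of all tested genes.

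**Figure D2:**
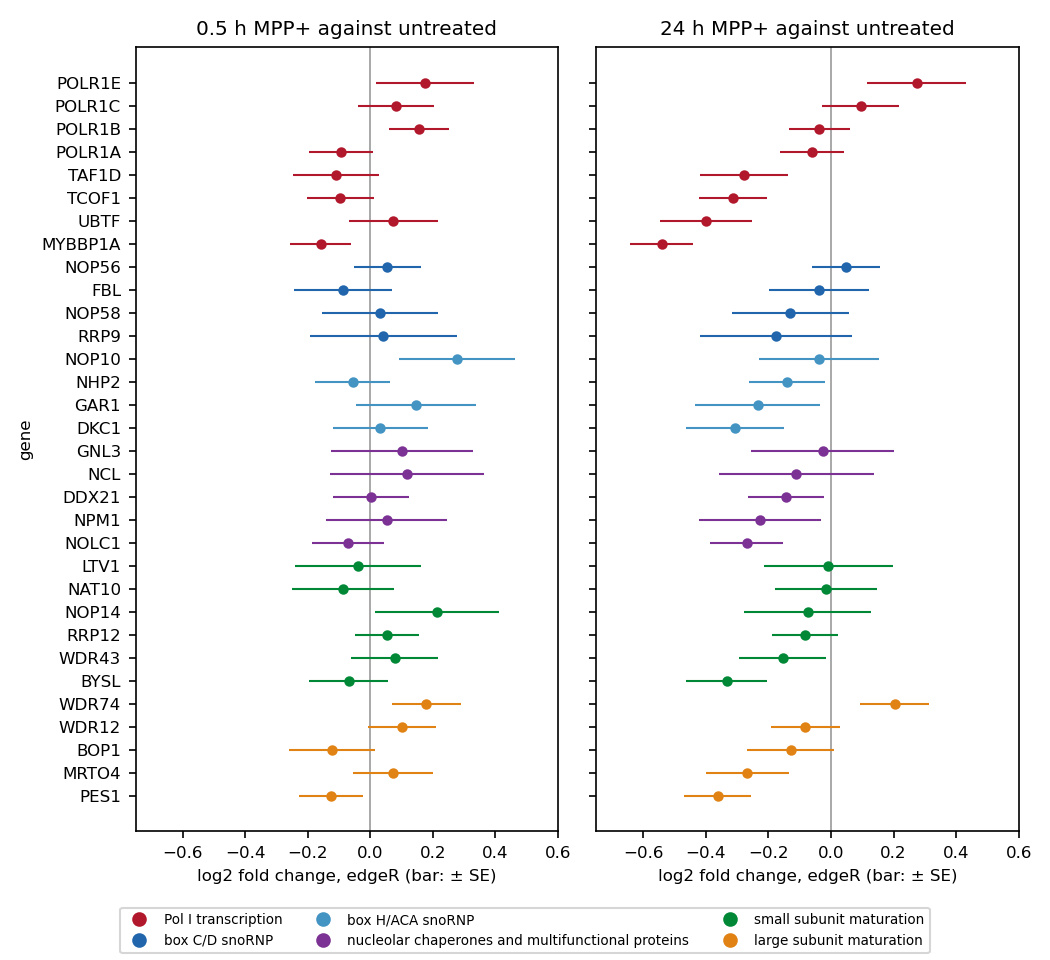
Log2 fold change of each of the 32 tested genes with its standard error, from edgeR, for 0.5 h and 24 h, each against untreated. Colour gives the role. At 24 h against untreated, 28 genes lie below 0 and MYBBP1A lies lowest, at -0.54.

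Among the genes of RNA polymerase I transcription, 8 of 9 were tested. At 24 h 6 were below 0, against 49.6% of all tested genes, with a median log2 fold change of -0.17. MYBBP1A (chr17:4538897-4555631), a nucleolar protein that represses ribosomal RNA gene transcription and binds MYB, had 77.1 and 70.5 CPM in untreated cells, 65.3 and 66.9 at 0.5 h, and 50.3 and 51.0 at 24 h. The 3 groups did not overlap, and the 24 h libraries were the lowest and the closest to each other. Group means were 73.8 ± 4.67, 66.1 ± 1.17 and 50.7 ± 0.448 CPM (SD, n = 2), and the log2 fold change at 24 h was -0.54 ± 0.10 (SE), a value 31.3% lower, with an edgeR adjusted p of 0.252. With no filter on low counts, a choice that puts 35125 genes in the fit, MYBBP1A passed, as did 0.698% of all genes (edgeR adjusted p = 0.0134). The log2 fold change was then -0.54 ± 0.13 (SE), with a larger SE than in the main fit.

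UBTF (chr17:44205033-44221626), the upstream binding factor that keeps ribosomal DNA open, had 51.7 and 55.5 CPM in untreated cells, 54.7 and 58.3 at 0.5 h, and 34.7 and 47.1 at 24 h. Both 24 h libraries were below the others, and they lay further apart than those of the other groups, with a mean of 40.9 ± 8.75 CPM against 53.6 ± 2.68 untreated (SD, n = 2). The log2 fold change at 24 h was -0.40 ± 0.15 (SE), with an edgeR adjusted p of 0.594. Leaving out 1 library at a time moved it between -0.63, without 24 h replicate 2, and -0.19, without 24 h replicate 1.

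TCOF1 (chr5:150357629-150400308) encodes treacle, the nucleolar protein altered in Treacher Collins syndrome that works with UBTF. It had 183 and 157 CPM in untreated cells, 158 and 159.6 at 0.5 h, and 137 and 136 at 24 h, so the 24 h libraries were lowest and one untreated library stood above the rest. The log2 fold change at 24 h was -0.31 ± 0.11 (SE, edgeR adjusted p = 0.574), and -0.20 without untreated replicate 1.

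At 24 h the log2 fold changes of the polymerase subunits lay on both sides of 0. POLR1B was at -0.04 ± 0.10 and POLR1C at 0.095 ± 0.12 (SE). For POLR1A, POLR1B and POLR1C the value was smaller than its SE, so their signs carry little weight. POLR1A, the largest subunit of RNA polymerase I, had 138.6 and 138.9 CPM untreated, 122.5 and 138 at 0.5 h, and 131 and 135 at 24 h, which gave -0.06 ± 0.10 at 24 h on the log2 scale (SE), with an edgeR adjusted p of 0.916. POLR1B, the other large subunit of the catalytic core, had 139 and 132 CPM untreated, 152 and 150.4 at 0.5 h, and 133 and 131 at 24 h. Its 0.5 h libraries were above all others. POLR1E, a subunit that acts in initiation and elongation, had 35.8 and 38.2 CPM untreated, 46.2 and 37.3 at 0.5 h, and 50.2 and 38.96 at 24 h. Its replicates at either exposure differed by more than the untreated pair, and the log2 fold change at 24 h was 0.27 ± 0.16 (SE, edgeR adjusted p = 0.715).

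**Figure D3:**
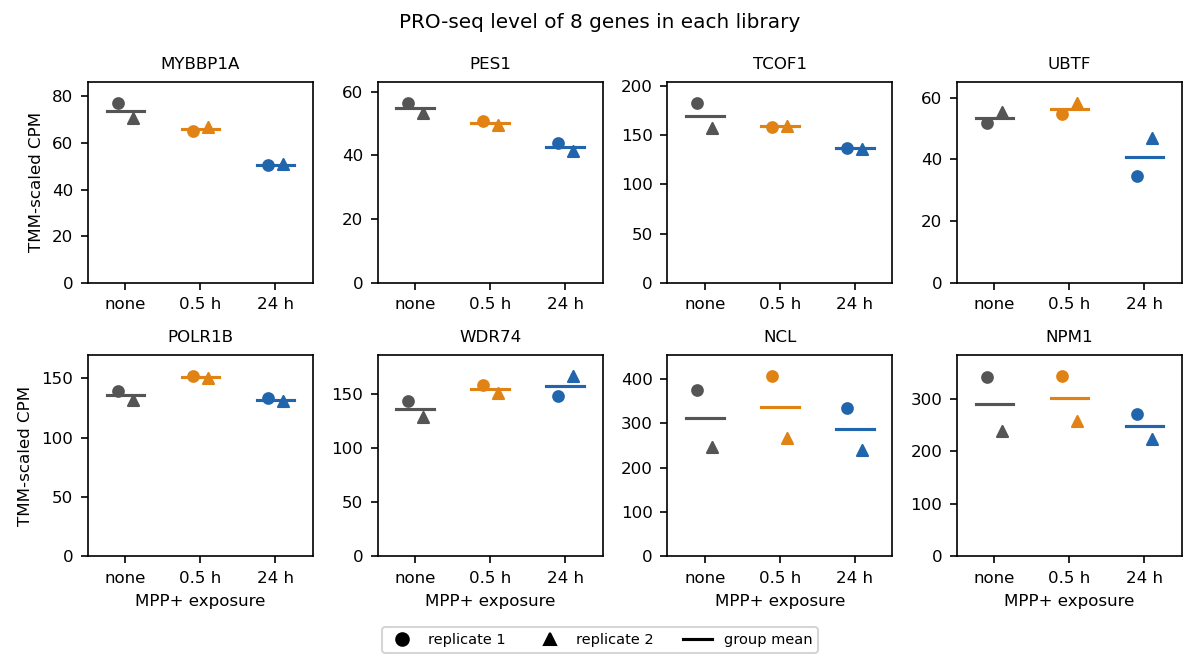
TMM-scaled CPM of 8 genes in each library, by MPP+ exposure; circles are replicate 1, triangles replicate 2 and horizontal lines group means, with each axis starting at 0. MYBBP1A and PES1 have both 24 h libraries lowest, while in NCL and NPM1 replicate 1 is above replicate 2 in each group.

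Sequences before the start of the genes with the smallest p at 24 h are shown so that the element found in one of them can be read beside those without it. They are the 250 bases upstream of the RefSeq start (GRCh38.p14), 5′ to 3′ on the strand of the gene. MYBBP1A is at chr17:4555385-4555634 on the minus strand, PES1 at chr22:30591911-30592160 on the minus strand, UBTF at chr17:44220883-44221132 on the minus strand, and BYSL at chr6:41921249-41921498 on the plus strand. The RefSeq start of each lies inside its longer GENCODE 29 span, near the edge for MYBBP1A, UBTF and BYSL. For PES1 it lies far inside, as that span reaches chr22:30607083, so the PES1 bases are within the gene by that annotation. Which start was used in these cells was not tested. Capitals mark the palindromic core of the site bound by NRF1, a regulator of nuclear genes for mitochondria, found near the start of MYBBP1A. TCOF1 was missing from the promoter table.
MYBBP1A: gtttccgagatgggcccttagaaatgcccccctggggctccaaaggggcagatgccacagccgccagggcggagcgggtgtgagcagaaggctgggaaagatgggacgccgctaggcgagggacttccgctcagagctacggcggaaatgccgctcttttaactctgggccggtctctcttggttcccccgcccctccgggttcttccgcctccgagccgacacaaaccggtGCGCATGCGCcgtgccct
PES1: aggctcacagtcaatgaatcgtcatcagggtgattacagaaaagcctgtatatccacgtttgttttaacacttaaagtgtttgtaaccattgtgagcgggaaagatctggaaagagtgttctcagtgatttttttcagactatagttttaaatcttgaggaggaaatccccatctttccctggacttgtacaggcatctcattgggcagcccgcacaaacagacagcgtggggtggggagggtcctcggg
UBTF: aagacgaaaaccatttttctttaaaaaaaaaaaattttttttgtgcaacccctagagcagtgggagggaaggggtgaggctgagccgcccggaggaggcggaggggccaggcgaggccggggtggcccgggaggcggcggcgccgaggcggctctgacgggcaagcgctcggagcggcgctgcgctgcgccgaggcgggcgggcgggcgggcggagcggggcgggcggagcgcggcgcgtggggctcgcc
BYSL: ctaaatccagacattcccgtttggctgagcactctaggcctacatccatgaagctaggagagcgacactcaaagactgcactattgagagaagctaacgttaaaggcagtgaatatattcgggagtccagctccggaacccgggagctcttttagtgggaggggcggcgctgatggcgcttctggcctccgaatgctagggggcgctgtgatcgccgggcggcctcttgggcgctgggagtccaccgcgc

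The promoter table held 32 of the 39 genes. The NRF1 core, the letters in capitals above, occurred within 250 bases in 2 of them, DKC1 and MYBBP1A, or 6.25%, against 1.03% of 35116 promoters. The E-box CACGTG, also a palindrome and the letters bound by MYC, occurred in NAT10 and NOP10, or 6.25%, against 6.34% of all promoters. TATAAA, searched on both strands, occurred in 1, LTV1 (3.12%), against 10.7%. Within 100 bases the NRF1 core occurred in 1 gene, against 0.712% of all promoters, the E-box in 2, against 3.43%, and TATAAA in 0, against 4.99%. These matches are descriptions of the letters and not evidence of binding.

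Box C/D particles include those that methylate ribosomal RNA and the U3 particle, of which RRP9 is a protein. All 4 box C/D genes of the list were tested, and 3 were below 0 at 24 h, against 49.6% of all tested genes. The median log2 fold change was -0.08, and none had groups apart. FBL, the methyltransferase fibrillarin, had 23.4 and 24.7 CPM untreated, 20.8 and 24.7 at 0.5 h, and 22.0 and 25.0 at 24 h. On the log2 scale this was -0.04 ± 0.16 (SE), with an edgeR adjusted p of 0.977. Its groups overlapped.

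Box H/ACA particles convert uridine to pseudouridine. All 4 of their genes were below 0 at 24 h, against 49.6% of all tested genes, with a median log2 fold change of -0.19. For NOP10 the value, -0.04 ± 0.19 (SE), was smaller than its SE. DKC1 (chrX:154762742-154777689), the pseudouridine synthase dyskerin, had 43.7 and 36.9 CPM untreated, 46.2 and 35.9 at 0.5 h, and 32.3 and 32.8 at 24 h. Its 24 h libraries were the lowest and close together, and the log2 fold change was -0.31 ± 0.16 (SE, edgeR adjusted p = 0.667), or -0.18 without untreated replicate 1. NOP10, the smallest protein of the particle, had 16.6 and 22.9 CPM untreated, 25.8 and 22.2 at 0.5 h, and 20.02 and 18.5 at 24 h. Its log2 fold change at 0.5 h was 0.28 ± 0.19 (SE), the highest of the 32 genes. Its untreated libraries were further apart than those of the other groups, and the value was 0.073 without untreated replicate 1, 0.52 without untreated replicate 2 and 0.16 without 0.5 h replicate 1.

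Nucleolar chaperones and multifunctional proteins gave 5 of 5 below 0 at 24 h, against 49.6% of all tested genes. The median log2 fold change was -0.14, and the values of NCL and GNL3 (-0.03 ± 0.23, SE) were smaller than their SE. NCL (chr2:231453531-231483641), nucleolin, had 375 and 247 CPM untreated, 406 and 267 at 0.5 h, and 334 and 241 at 24 h. NPM1 (chr5:171387116-171411137), nucleophosmin, had 343 and 239 CPM untreated, 343 and 259 at 0.5 h, and 272 and 224 at 24 h. In both genes replicate 1 exceeded replicate 2 in each group, and the groups overlapped. The log2 fold changes at 24 h were -0.11 ± 0.25 for NCL and -0.23 ± 0.19 for NPM1 (SE), with edgeR adjusted p of 0.942 and 0.822. NOLC1, a chaperone of small nucleolar particles, had 83.6 and 74.4 CPM untreated, 75.7 and 74.4 at 0.5 h, and 71.2 and 59.3 at 24 h. Its 24 h libraries were the lowest, and the log2 fold change was -0.27 ± 0.12 (SE, edgeR adjusted p = 0.611). It was -0.15 without 24 h replicate 2 and -0.41 without 24 h replicate 1.

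Of the small subunit factors, 6 of 7 were tested and all 6 were below 0 at 24 h, with a median log2 fold change of -0.08. BYSL (chr6:41921188-41933046), bystin, which acts late in small subunit assembly, had 45.0 and 38.2 CPM untreated, 40.8 and 38.4 at 0.5 h, and 32.7 and 33.3 at 24 h. Its 24 h libraries were the lowest, and the fitted difference was -0.33 ± 0.13 on the log2 scale (SE, edgeR adjusted p = 0.595), or -0.21 without untreated replicate 1. RRP12 was the other small subunit gene whose 24 h libraries lay below the untreated ones, by a narrow margin. It had 72.2 and 79.4 CPM untreated and 71.2 and 72.1 at 24 h. Its log2 fold change was -0.08 ± 0.11 (SE, edgeR adjusted p = 0.893).

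Of the large subunit factors, 5 of 10 were tested. At 24 h 4 were below 0, against 49.6% of all tested genes, with a median log2 fold change of -0.13. PES1 (chr22:30576625-30607083), which forms the PeBoW complex with BOP1 and WDR12, had 56.4 and 53.4 CPM untreated, 50.9 and 49.7 at 0.5 h, and 43.8 and 41.4 at 24 h. The 3 groups did not overlap, and the log2 fold change at 24 h was -0.36 ± 0.11 (SE, edgeR adjusted p = 0.537). Its partners were nearer to 0, BOP1 at -0.13 ± 0.14 and WDR12 at -0.08 ± 0.11 (log2 fold change ± SE).

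WDR74 (chr11:62832342-62841809), overlapped in part by RNU2-2P and other genes, went the other way in value. It had 144 and 129 CPM untreated, 158 and 151 at 0.5 h, and 148 and 166 at 24 h. The untreated libraries were the lowest, and the log2 fold change was 0.18 ± 0.11 at 0.5 h and 0.20 ± 0.11 at 24 h (SE, edgeR adjusted p = 0.9997 and 0.693). MRTO4, a factor for the stalk of the large subunit, had 37.2 and 34.1 CPM untreated, 35.2 and 39.9 at 0.5 h, and 30.0 and 29.2 at 24 h. Its 24 h libraries were the lowest, with a log2 fold change of -0.27 ± 0.13 (SE).

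The comparison of 0.5 h with untreated cells addresses the early difference, against the same untreated libraries as at 24 h. No gene passed in edgeR, against 0.0735% of all tested genes, and 0 were at an unadjusted p under 0.05 in either direction, against 1.41% lower and 1.05% higher. The log2 fold change was below 0 in 12 genes and above 0 in 20, against 47.9% of all tested genes below 0, with a median of 0.048 against 0.0082. POLR1A, MYBBP1A and PES1 had both 0.5 h libraries below both untreated ones, and POLR1B and WDR74 had both above, against 14.4% and 12.9% of all tested genes. Without untreated replicate 2 the number below 0 was 19 and the median was -0.08, and without 0.5 h replicate 1 the median was -0.0019, so the sign of the early median depended on those libraries. MYBBP1A was at -0.16 ± 0.10, PES1 at -0.13 ± 0.10 and POLR1B at 0.16 ± 0.10 (log2 fold change ± SE).

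The comparison of 24 h with 0.5 h uses the same 24 h and 0.5 h libraries as the comparisons above. No gene passed in edgeR, nor did any other tested gene (0%), and 4 genes were lower and 0 higher at an unadjusted p under 0.05, against 3.62% and 2.8%. The log2 fold change was below 0 in 25 genes, against 49.5% of all tested genes, with a median of -0.19 and a range of -0.47 to 0.098. Both 24 h libraries were below both 0.5 h libraries in 18 genes and above in 0, against 19% and 19.4%. The 4 genes of smallest p were MYBBP1A at -0.38 ± 0.10, UBTF at -0.47 ± 0.14, MRTO4 at -0.34 ± 0.13 and PES1 at -0.24 ± 0.10 (log2 fold change ± SE). The group mean was lowest at 24 h in 24 of the 32 genes, against 36.8% of all tested genes, and highest at 0.5 h in 17, against 30.8%.

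**Figure D4:**
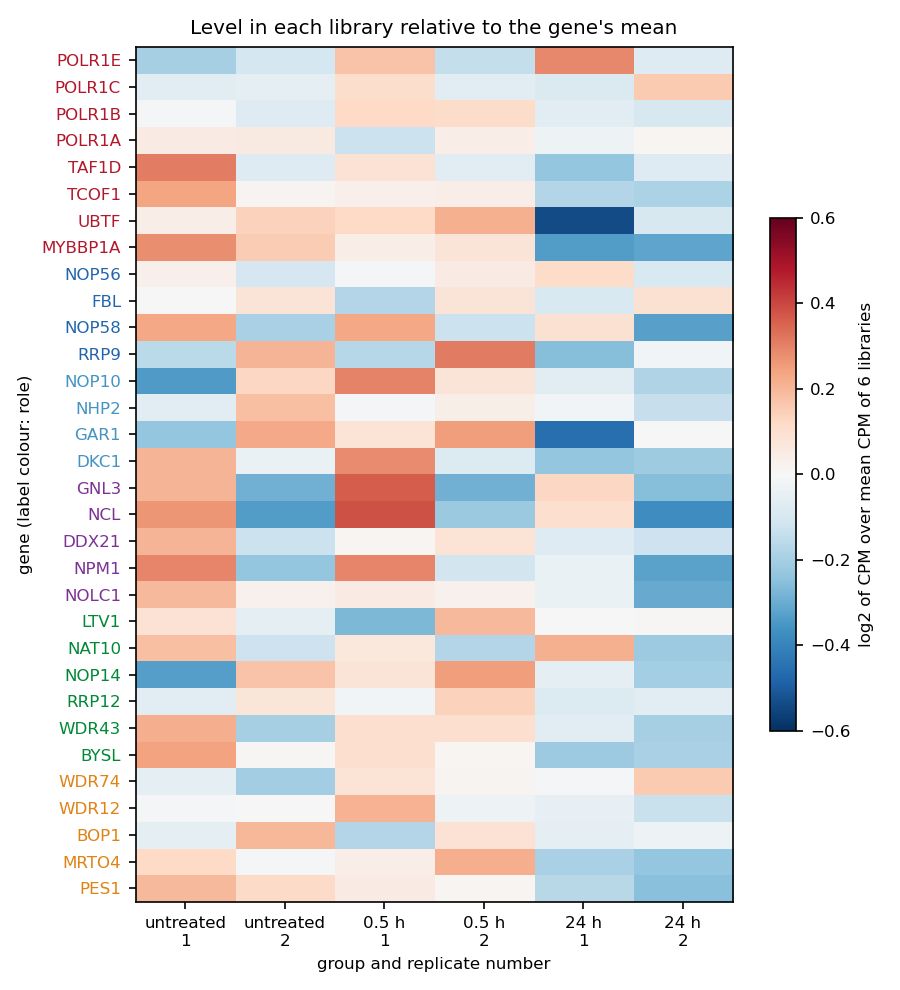
Log2 of the CPM of each of the 32 tested genes in each library over its mean of 6 libraries; red is above and blue below the mean, and label colour gives the role. The median over genes is -0.07 and -0.14 in the 24 h libraries and lies between -0.0041 and 0.080 in the other 4.

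The median absolute log2 ratio of replicate 1 to replicate 2 over the 32 genes was 0.228 in untreated cells, 0.171 at 0.5 h and 0.141 at 24 h, and the median signed ratio was 0.128, 0.0046 and 0.033. Replicate 1 was above replicate 2 in all 3 groups in 8 genes (POLR1B, NOP58, NCL, NPM1, NOLC1, GNL3, NAT10 and PES1), against 21.7% of all tested genes. It was below in all 3 groups in 7 (POLR1A, UBTF, FBL, RRP9, GAR1, RRP12 and BOP1), against 22.3%. Replicate number and group are crossed here, and what the shared number stands for is not in the labels.

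Summed over the list, the genes held 3075 and 2607 CPM in untreated cells, 3076 and 2750 at 0.5 h, and 2725 and 2475 at 24 h. The untreated and 24 h libraries overlapped, and both 24 h sums were below both 0.5 h sums. The mean was 8.48% lower at 24 h than in untreated cells and 10.8% lower than at 0.5 h. A two-sided exact permutation test of 2 libraries against 2 cannot give a p below 0.333, so it could pass no threshold here, and it gave 0.667 and 0.333. NCL and NPM1 together made up 18.6% to 24.4% of each sum. As a share of assigned counts, the list held 0.302% (95% exact binomial interval 0.298% to 0.306%) in untreated replicate 1, the highest library. The lowest was 24 h replicate 2, at 0.255% (0.251% to 0.259%). Untreated replicate 2 held 0.265% (0.262% to 0.269%) and 24 h replicate 1 held 0.268% (0.265% to 0.272%), so the groups overlapped. These intervals cover counting error alone and not the spread among libraries.

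A wider list held 117 other genes of RNA polymerase I and ribosome assembly, of which 109 were tested. None passed in edgeR at 24 h, against 0.0692% of all tested genes. There 85 were below 0 (all tested genes 49.6%) with a median log2 fold change of -0.09, and 11 were lower and 3 higher at an unadjusted p under 0.05 (all tested genes 4.09% and 4.01%). At 0.5 h 40 were below 0, against 47.9% of all tested genes, with a median of 0.040. The genes of smallest p at 24 h went both ways. BUD23, an RNA methyltransferase of the small subunit, had 92.0 and 110.4 CPM untreated, 109.2 in both 0.5 h libraries, and 191 and 139 at 24 h. RRP1, of large subunit maturation, had 49.4 and 49.3 CPM untreated, 38.1 and 43.1 at 0.5 h, and 28.1 and 35.9 at 24 h. For both, the 24 h libraries lay outside the range of the others, with log2 fold changes of 0.71 ± 0.16 and -0.63 ± 0.14 (SE, edgeR adjusted p = 0.357 and 0.383). POLR2L, a subunit shared by the polymerases, was at 0.52 ± 0.12, and WDR18, of large subunit maturation, was at -0.46 ± 0.12 (log2 fold change ± SE).

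**Figure D5:**
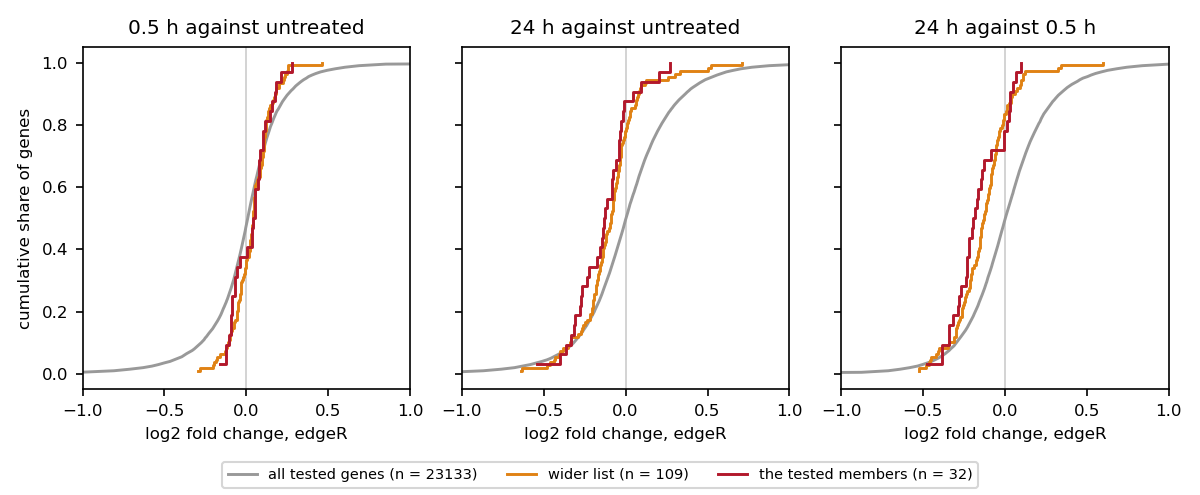
Cumulative share of genes against log2 fold change from edgeR for each comparison, for all 23133 tested genes, the 109 tested genes of the wider list and the 32 tested genes of the list; the axis is limited to values between -1 and 1. At 24 h against untreated, the medians are 0.0023, -0.09 and -0.13.

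The products assembled by these factors, and the regulators known for them, were read the same way. Of 79 genes for cytosolic ribosomal proteins, 71 were tested and none passed in edgeR at 24 h, against 0.0692% of all tested genes. Of the 71, 61 were below 0 (all tested genes 49.6%) with a median log2 fold change of -0.14, and 10 were lower and 2 higher at an unadjusted p under 0.05 (all tested genes 4.09% and 4.01%). MYC had 126 and 81.4 CPM untreated, 109 and 86.6 at 0.5 h, and 94.5 and 66.4 at 24 h. Its groups overlapped, and replicate 1 was above replicate 2 in each. In untreated cells MYCN had a mean of 16.2 CPM, against 104 for MYC. The log2 fold change at 24 h was -0.36 ± 0.22 for MYC and -0.03 ± 0.20 for MYCN (SE), with edgeR adjusted p of 0.734 and 0.983.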

How the data were processed

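PRO-seq libraries of 6 samples were analysed. Per the submitters' processing notes, counting used featureCounts 2.0.1, alignment tools were Bowtie2 2.4.2 and SAMtools 1.13, reads were handled with cutadapt 1.16.5, and hg38 was the build; DESeq2 2.11.40.6 and deepTools 3.5.1.0.0 are also named. The deposited tables of the authors hold raw counts per gene and library. For feature type, strand and annotation release, the settings are not given in the sources used. The authors' tables of differential genes were not used. Gene names came from a gene-name table (60481 identifiers) and GENCODE 29 (213), and 6357 stayed unnamed.

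Counts were filtered with filterByExpr, scaled by TMM (factors 0.973 to 1.03) and fitted in edgeR 4.0.16 (R 4.3.3; glmQLFit and glmQLFTest) over the 6 libraries, 1 coefficient per group, with 3 residual degrees of freedom and a common biological coefficient of variation of 0.113. Two-sided p-values were adjusted by Benjamini-Hochberg over 23133 genes at 0.05. CPM values are TMM-scaled. PCR copies may be counted along with molecules, and intervals and floors cover counting error alone.

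The genes and lists were chosen with earlier results of these data known. Values per library were given for the 6 genes of smallest p at 0.5 h and at 24 h against untreated, the 4 at 24 h against 0.5 h, a panel of 8 (POLR1A, POLR1B, UBTF, RRN3, FBL, DKC1, NCL, NPM1), and MYC. Of the wider list, genes came from the 4 of smallest p. Alternatives were other scalings, DESeq2 1.42.0, other count filters, a replicate block, the compared libraries alone, and leaving out each library.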

Additional observations from a re-analysis of the deposited data

How the results depend on the processing

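No gene of the list passed with upper-quartile or RLE scaling, a mean of at least 50 counts, the compared libraries alone or DESeq2. Those settings called only 0% to 0.134% of all tested genes in any comparison. With no filter on low counts 1 gene passed at 24 h against untreated, MYBBP1A (-0.54 ± 0.13, SE, edgeR adjusted p 0.0134). With a replicate block 3 genes passed in edgeR at 24 h against untreated: MYBBP1A (log2 fold change -0.54, adjusted p 0.0019), TCOF1 (-0.31, 0.028) and UBTF (-0.40, 0.0485). With the replicate block 3 passed at 24 h against 0.5 h: MYBBP1A (-0.38, edgeR adjusted p 0.036), NPM1 (-0.27, 0.0455) and UBTF (-0.48, 0.022). The replicate block called 57, 685 and 412 of all tested genes in the 3 comparisons, against 17, 16 and 0. DESeq2 called 20, 31 and 0. Deviations of same-numbered libraries from their group means correlated at 0.328, 0.293 and 0.312 between pairs of groups over 23133 genes, but each comparison has only 2 numbers and the labels do not say what they share. Leaving out 1 library at a time gave 10 to 19 genes below 0 at 0.5 h, 19 to 28 at 24 h and 25 to 26 for 24 h against 0.5 h. The medians were -0.0756 to 0.0725, -0.18 to -0.083 and -0.22 to -0.14. Genes with groups apart numbered 3 to 12 lower and 2 to 14 higher at 0.5 h, 11 to 20 and 2 to 6 at 24 h, and 18 to 23 and 0 to 4 for 24 h against 0.5 h, since fewer libraries separate more easily. Of all tested genes, 14.4% to 36.3% were lower and 12.5% to 34.9% higher at 0.5 h, 18.5% to 37.7% and 18.4% to 36.7% at 24 h, and 19.0% to 34.7% and 19.2% to 35.7% for 24 h against 0.5 h. The log2 ratio of summed CPM was -0.088 to 0.16, -0.25 to -0.0040 and -0.24 to -0.081. It turned to -0.088 without untreated replicate 2 and -0.047 without 0.5 h replicate 1. At 24 h the log2 fold change ranged from -0.13 to 0.054 for FBL, -0.39 to 0.22 for NCL, -0.48 to 0.057 for NPM1 and -0.086 to 5.68e-05 for POLR1B. The cause of these moves was not tested. The 6 genes at 0 counts gave no value under any setting.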
